A study of Mus musculus with 18 samples.

Results

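The genes described here are 40 imprinted mouse genes, chosen by symbol from textbook imprinted domains and not by a threshold on their values. Earlier results of these data were known when they were chosen. Each of the 40 symbols matched 1 of the 54281 gene rows through the GENCODE mouse M21 annotation (GRCm38). Of the 40, 22 are known to be expressed mainly from the paternal allele and 15 mainly from the maternal allele. Imprinted expression of the other 3 (Grb10, Ddc and Gnas) depends on tissue or promoter, and they are called mixed here. The RNA-seq data came from cerebral cortex of male C57BL/6J mice and from mouse embryonic stem cells (mESC) of the wild-type R1 line. Cortex was sampled from mice labelled Mcph1KO and from wild-type (WT) mice at 4 stages, E17.5, P4, A6w and A18w, of which the last 2 are written as the labels give them. Each of the 9 groups held 2 libraries, 18 in all, of which 16 were cortex. The labels do not say how the Mcph1KO allele was made, nor whether a library was 1 animal, so the p-values below measure the spread between libraries.

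An imprinted gene is transcribed mainly from the allele of 1 parent, because DNA methylation laid down in the egg or the sperm marks a control region near it. Imprinted genes lie in clusters, in which a long noncoding RNA from an allele often goes with silence of its neighbours on the same chromosome. Many of them set fetal growth, and the brain keeps a large set of them active. Gene totals carry no information on the allele, so the parental classes are background and were not measured.

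Library totals ran from 23531045 to 32041849 counts. Values are counts scaled to library size (CPM), with library sizes adjusted by trimmed mean of M values (TMM) within the fit. Gene totals of Mcph1 ranged from 11.7 to 16.6 CPM in the libraries labelled Mcph1KO and from 8.36 to 12.5 CPM in WT. They are thus no lower under the Mcph1KO label, a gene total does not show which exons are left, and the genotype is given as the labels have it. Cortical neuron markers summed to between 1450 and 3170 CPM in every cortex library, and to at most 16.4 CPM in stem cells, whose pluripotency markers summed to 7770 and 6610 CPM. Of the 40 genes, 39 passed the filter on low counts in cortex. Phlda2, a growth-restraining gene of the placenta, did not, with at most 0.182 CPM in any cortex library. A gene is called here when its adjusted p is under 0.05 in edgeR's quasi-likelihood test, with Benjamini-Hochberg adjustment over all genes tested. In bulk tissue, fewer cells of a type and less RNA per cell cannot be told apart.

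From E17.5 to P4, 16 of the 39 genes were called, 9 higher and 7 lower at P4. Of all 19199 genes tested, 18.9% were called higher and 17.9% lower, so the set moved about as often as other genes did. The median log2 fold change was 0.01 in the set and 0.03 over all genes. The next step was larger: 27 of the 39 were called at A6w against P4, 8 higher and 19 lower, where 27.3% of all genes were called higher and 27.8% lower. The set's median was -0.75, against -0.06 over all genes, and 26 of its 39 values lay below 0. Between A18w and A6w no imprinted gene was called, with 2 at an unadjusted p under 0.05, where 1706 of all 19199 genes stood. DESeq2 called none of them either, and 0.135% of all genes were called by edgeR. Over the whole span, A6w and A18w against E17.5, 34 of the 39 were called, 13 higher and 21 lower, beside 33.5% and 35.5% of all genes.

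**Figure D1:**
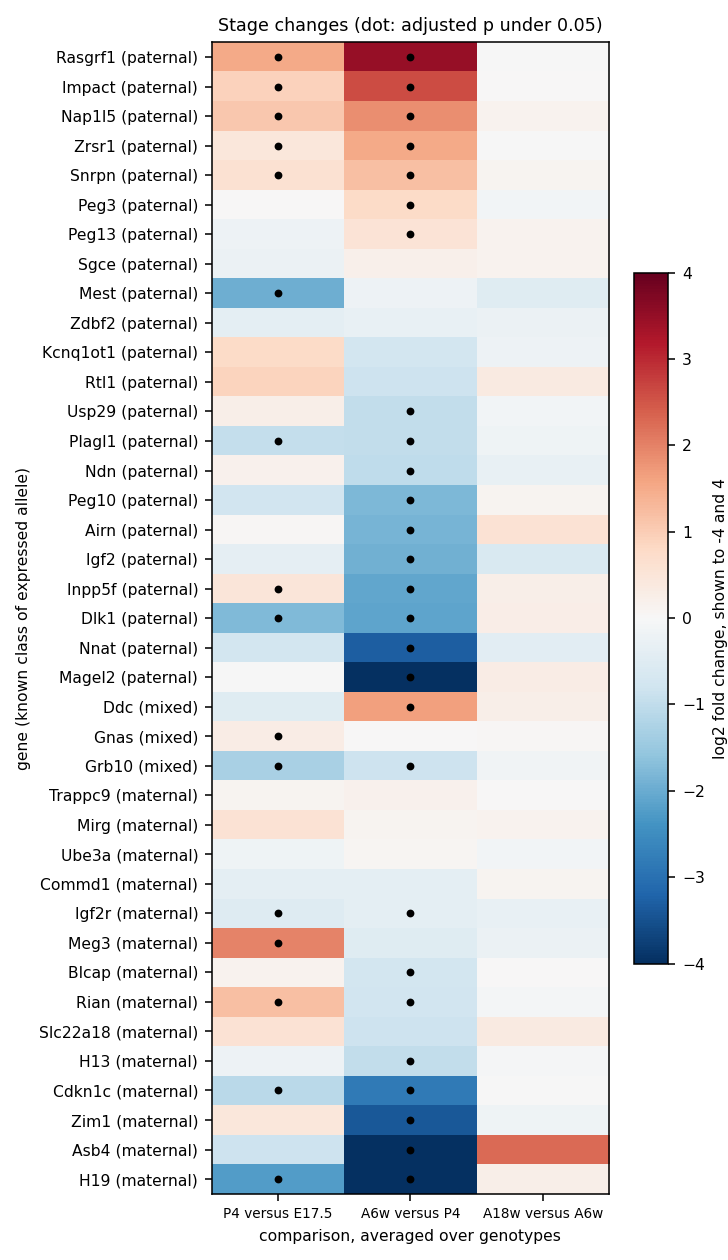
Log2 fold changes of the 39 imprinted genes tested in cortex at the 3 steps between stages, averaged over genotypes, with genes in rows grouped by the class of allele they are known to be expressed from and a dot where the adjusted p was under 0.05. The colour scale ends at -4 and 4. The first step has 16 dots, the second 27 and the third none.

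The 2 steps combined into a few courses. Falls at both steps were called for 6 genes (H19, Cdkn1c, Grb10, Plagl1, Dlk1 and Igf2r), and rises at both for 5 (Snrpn, Impact, Nap1l5, Rasgrf1 and Zrsr1). A further 11 were called lower at the second step alone, and 3 (Ddc, Peg3 and Peg13) higher at the second step alone. Rian and Inpp5f were called higher at P4 and then lower at A6w. For 9 genes neither step was called. All 5 genes with rises at both steps are of the paternal class. At A6w against P4, 7 genes of the paternal class were called higher and 10 lower (22 tested), against 0 higher and 8 lower in the maternal class (14 tested). The medians of these classes were -0.78 and -0.75, and a difference between the classes was not tested.

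These steps average over genotypes, and some calls were lost within 1 genotype, where each stage has 2 libraries. At P4 against E17.5, within WT alone, Cdkn1c was at -0.63 (adjusted p = 0.146), Igf2r at -0.46 (adjusted p = 0.0719) and Zrsr1 at 0.44 (adjusted p = 0.0661). Within Mcph1KO alone, Nap1l5 was at 0.55 (adjusted p = 0.167), Inpp5f at 0.39 (adjusted p = 0.118) and Impact at 0.58 (adjusted p = 0.0506). At A6w against P4, within Mcph1KO alone, Igf2 was at -1.30 (adjusted p = 0.116), Ndn at -0.62 (adjusted p = 0.17) and Asb4 at -2.20 (adjusted p = 0.0602). Peg13 was there at 0.38 (adjusted p = 0.102), Airn at -1.72 (adjusted p = 0.0539) and Igf2r at -0.39 (adjusted p = 0.0785). Within WT alone, Ddc was at 1.06 (adjusted p = 0.0794) and Igf2r at -0.41 (adjusted p = 0.0605). Over the whole span, within Mcph1KO alone, Ddc was at 0.85 (adjusted p = 0.0832), Meg3 at 1.04 (adjusted p = 0.068) and Rian at 0.32 (adjusted p = 0.087). Mirg was there at 0.66 (adjusted p = 0.116), Peg3 at 0.33 (adjusted p = 0.28) and Peg13 at 0.33 (adjusted p = 0.0827), and within WT alone Zdbf2 was at -0.48 (adjusted p = 0.37). Each of these kept its direction, and the steps of Dlk1, Grb10, Peg3 and Gnas are given with their own values.

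**Figure D2:**
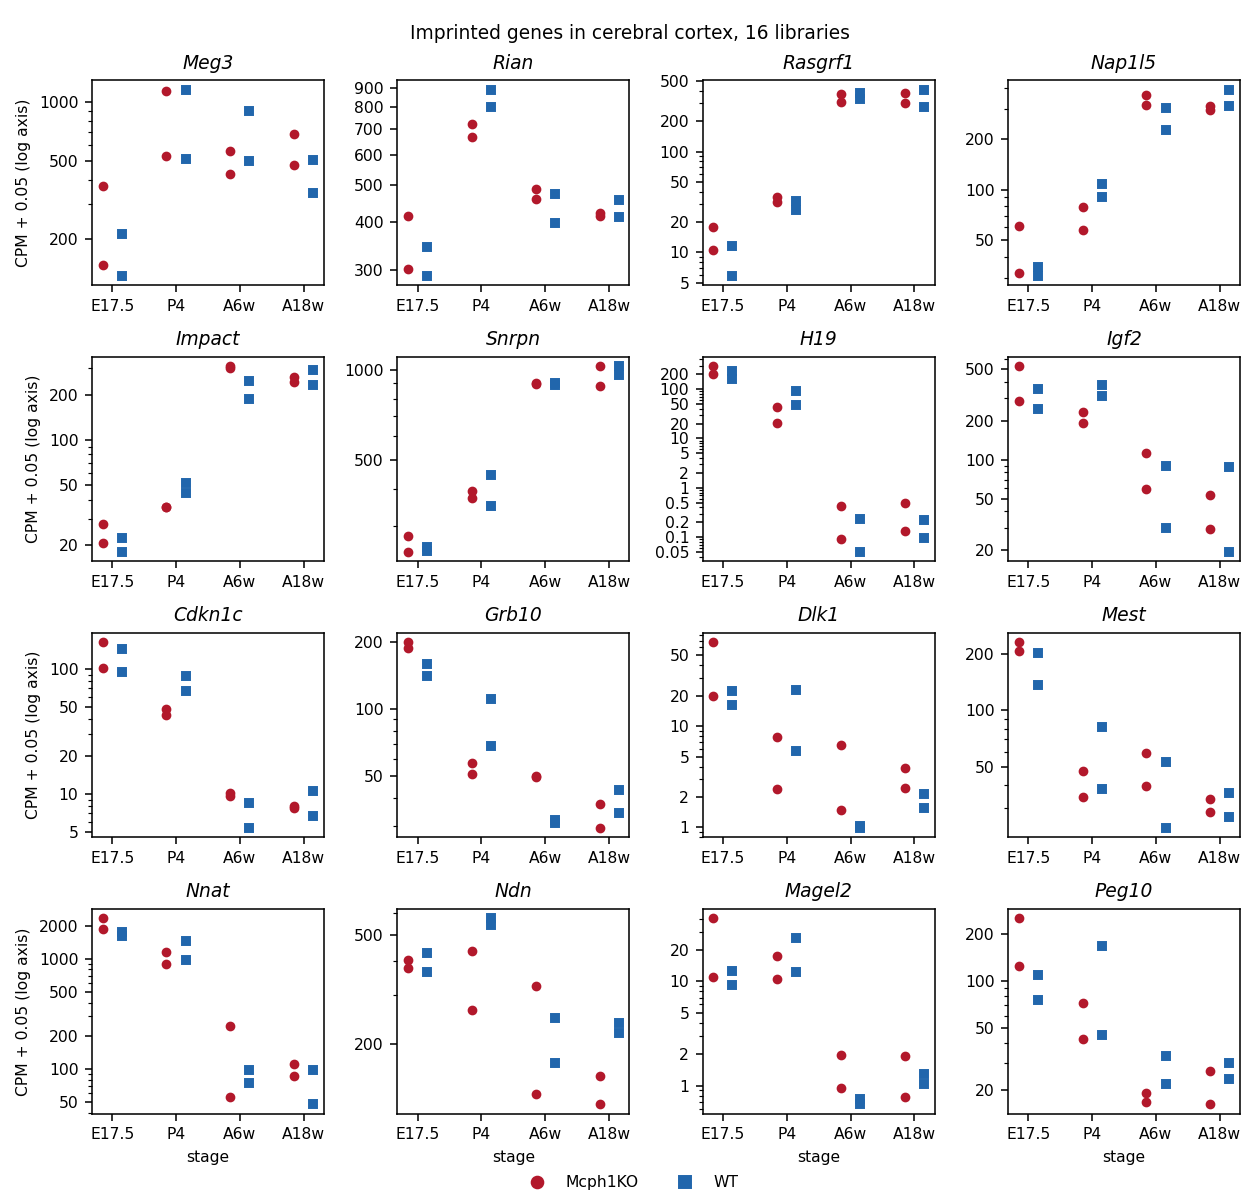
CPM of 16 imprinted genes in each cortex library by stage, on a log axis after adding 0.05, with circles for libraries labelled Mcph1KO and squares for WT. The first 6 panels are genes called higher at P4 than at E17.5, the others are genes called lower at A6w and A18w than at E17.5, and H19 ends below 0.5 CPM in all 8 libraries of A6w and A18w.

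Several growth regulators fell. H19 is a maternally expressed noncoding RNA next to Igf2 (chromosome 7, 142575529 to 142578143, minus strand) and holds a microRNA precursor in its exon. H19 stood at 207 and 297 CPM at E17.5, 43.7 and 20.1 at P4, 0.385 and 0.0427 at A6w and 0.0861 and 0.444 at A18w in the libraries labelled Mcph1KO. Among WT libraries H19 stood at 159 and 230 CPM at E17.5, 92.3 and 47.2 at P4, 0 and 0.182 at A6w and 0.047 and 0.176 at A18w. No library of a later stage reached the lowest of the stage before until A6w, after which the A6w and A18w libraries overlapped. The log2 fold change was -2.23 ± 0.33 (SE, 4 libraries per stage) at P4 against E17.5 (adjusted p = 0.000345) and -8.27 ± 0.54 at A6w against P4 (adjusted p = 7.43e-08). Over A6w and A18w together 34 H19 counts were left, against 27069 at E17.5, a ratio of 0.00067 with an exact 95% counting interval of 0.000464 to 0.000936. The mature microRNAs that lie in H19 are shown because this RNA fell furthest of the set; they were not measured here. The sequences are RefSeq's (GRCm38.p6), with the seed, bases 2 to 8, in capitals.
mmu-miR-675-5p: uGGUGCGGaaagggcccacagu
mmu-miR-675-3p: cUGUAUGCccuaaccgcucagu

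Igf2, the paternally expressed growth factor beside H19, did not follow it at the first step. Igf2 stood at 282 and 529 CPM at E17.5, 231 and 193 at P4, 113 and 59.3 at A6w and 29 and 53.3 at A18w in the libraries labelled Mcph1KO. Among WT libraries Igf2 stood at 246 and 348 CPM at E17.5, 312 and 379 at P4, 29.5 and 89.4 at A6w and 19.4 and 87.1 at A18w. The P4 and E17.5 libraries overlapped, and the difference was not called (log2 fold change -0.36 ± 0.43, adjusted p = 0.545). All 4 A6w libraries lay below all 4 P4 libraries (-1.92 ± 0.45, adjusted p = 0.00271). Igf2 is also made by meningeal and vascular cells: markers of meningeal fibroblasts summed to between 106 and 240 CPM at A6w and between 461 and 805 CPM at P4. Pericyte markers summed to between 231 and 293 CPM at A6w and between 249 and 361 CPM at P4, and endothelial markers to between 315 and 399 CPM at A6w and between 261 and 393 CPM at P4. The part of these cells in the fall was not tested. Igf2r, whose product clears Igf2 from the cell surface, fell at both steps, by 0.53 ± 0.12 at P4 against E17.5 (adjusted p = 0.00374) and by 0.40 ± 0.12 at A6w against P4 (adjusted p = 0.0104) on the log2 scale. The second of these calls was lost when P4_WT replicate 1 (adjusted p = 0.054), A6w_Mcph1KO replicate 1 (0.0523) or A6w_WT replicate 1 (0.0543) was left out.

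Cdkn1c encodes p57, an inhibitor of cyclin-dependent kinases that takes dividing cells out of the cycle (chromosome 7, 143458339 to 143461050). Cdkn1c stood at 101 and 164 CPM at E17.5, 42.8 and 47.9 at P4, 10.2 and 9.65 at A6w and 7.62 and 7.99 at A18w in the libraries labelled Mcph1KO. Among WT libraries Cdkn1c stood at 94 and 144 CPM at E17.5, 87.6 and 66.5 at P4, 5.28 and 8.44 at A6w and 6.67 and 10.6 at A18w. Each P4 library was below each E17.5 library, and each A6w library below each P4 library. The log2 fold change was -1.09 ± 0.21 at P4 against E17.5 (adjusted p = 0.00146) and -2.84 ± 0.22 at A6w against P4 (adjusted p = 3.35e-07). Grb10, an adaptor that dampens insulin and IGF receptor signalling, fell by 1.29 ± 0.15 (log2) at P4 against E17.5 (adjusted p = 7.46e-05) and by 0.82 ± 0.15 at A6w against P4 (adjusted p = 0.000428). Within the libraries labelled Mcph1KO alone the second change of Grb10 was -0.13 and not called (adjusted p = 0.653). Plagl1, a zinc finger transcription factor that regulates other imprinted genes, fell by 0.96 ± 0.12 and then by 0.99 ± 0.13 (adjusted p = 0.000135 and 2.11e-05). Radial glia and progenitor markers summed to 1420 to 1640 CPM at E17.5, 1040 to 1260 at P4 and 626 to 722 at A6w. These sums mix directions. At A6w against P4, 6 of the 8 markers were called lower and 2 higher (median -1.19), beside 27.8% and 27.3% of all genes. Slc1a3 rose, from 163 to 207 CPM at E17.5 to 486 to 568 CPM at A6w. The part of progenitor cells in the falls of the imprinted genes was not tested.

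Mest, an imprinted hydrolase gene, had its fall by P4. Mest stood at 207 and 231 CPM at E17.5, 34.6 and 47.3 at P4, 39.6 and 59.1 at A6w and 33.8 and 28.8 at A18w in the libraries labelled Mcph1KO. Among WT libraries Mest stood at 203 and 137 CPM at E17.5, 81.7 and 38 at P4, 23.5 and 53.1 at A6w and 26.9 and 36.1 at A18w. The P4 libraries were all below the E17.5 libraries (-1.96 ± 0.28, adjusted p = 0.000286), while A6w and P4 overlapped (-0.19 ± 0.28, adjusted p = 0.589). Dlk1, a transmembrane Notch-family ligand without the usual receptor-activating domain, was called lower at both steps (-1.76 ± 0.54, adjusted p = 0.0232, and -2.12 ± 0.59, adjusted p = 0.00791). Its libraries overlapped at both, and single libraries decide it: the first call was lost without E17.5_Mcph1KO replicate 2 (-1.20, adjusted p = 0.102) or any of 3 other libraries (E17.5_WT replicate 2, P4_Mcph1KO replicate 2 and P4_WT replicate 2). The second was lost without P4_Mcph1KO replicate 1 (adjusted p = 0.0535) or P4_WT replicate 1 (adjusted p = 0.0511). Dlk1 was also not called at the first step within WT alone (-0.42, adjusted p = 0.73), nor at the second within Mcph1KO alone (-0.35, adjusted p = 0.751).

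Genes with a role in neuronal differentiation and in neurons moved both ways. Nnat encodes neuronatin, a small membrane protein of newly formed neurons, and lies inside an intron of Blcap. Nnat stood at 1860 and 2330 CPM at E17.5, 1160 and 898 at P4, 243 and 55.1 at A6w and 86.7 and 110 at A18w in the libraries labelled Mcph1KO. Among WT libraries Nnat stood at 1740 and 1620 CPM at E17.5, 1450 and 965 at P4, 74.4 and 97.4 at A6w and 47.6 and 98.8 at A18w. Although all P4 libraries lay below all E17.5 libraries, that step was not called (-0.75 ± 0.36, adjusted p = 0.117), and the next was (-3.30 ± 0.39, adjusted p = 1.09e-05). The neighbouring Blcap fell by 0.75 ± 0.12 on the log2 scale at A6w against P4 (adjusted p = 0.000154).

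The Prader-Willi region on chromosome 7 split. Snrpn, whose product is a core splicing protein enriched in neurons, stood at 246 and 278 CPM at E17.5, 394 and 372 at P4, 898 and 901 at A6w and 1030 and 882 at A18w in the libraries labelled Mcph1KO. Among WT libraries Snrpn stood at 256 and 248 CPM at E17.5, 349 and 445 at P4, 886 and 905 at A6w and 1030 and 957 at A18w. Both rises separated all libraries (0.60 ± 0.10, adjusted p = 0.000848, and 1.20 ± 0.11, adjusted p = 8.63e-07). Ndn, encoding the MAGE-family protein necdin, was not called at P4 and fell at A6w against P4 (-1.02 ± 0.24, adjusted p = 0.00327), with overlap between the stages. Magel2, another MAGE-family gene, ranged from 0.609 to 1.92 CPM at A6w, against 10.4 to 26.1 at P4 (-4.08 ± 0.48, adjusted p = 1.07e-05). Ube3a, the maternally expressed ubiquitin ligase of Angelman syndrome, was not called at any step, with 144 to 184 CPM at A6w and 98.2 to 186 at P4.

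Rasgrf1, a calcium-dependent activator of Ras in neurons, rose most (chromosome 9, 89909908 to 90026977). Rasgrf1 stood at 10.5 and 17.8 CPM at E17.5, 35.8 and 31.9 at P4, 309 and 375 at A6w and 303 and 385 at A18w in the libraries labelled Mcph1KO. Among WT libraries Rasgrf1 stood at 11.6 and 5.83 CPM at E17.5, 26.2 and 32.6 at P4, 378 and 333 at A6w and 279 and 412 at A18w. The stages did not overlap up to A6w, and the rises were 1.50 ± 0.23 (adjusted p = 0.000347) and 3.47 ± 0.24 (adjusted p = 1.08e-07). Impact, a regulator of the eIF2 kinase GCN2, stood at 20.6 and 27.5 CPM at E17.5, 36 and 36 at P4, 310 and 301 at A6w and 243 and 261 at A18w in the libraries labelled Mcph1KO. Among WT libraries Impact stood at 18 and 22.2 CPM at E17.5, 51.6 and 44.7 at P4, 186 and 246 at A6w and 231 and 291 at A18w. Its rises were 0.92 ± 0.14 (adjusted p = 0.000321) and 2.62 ± 0.14 (adjusted p = 1.58e-08). Nap1l5, a single-exon gene of the nucleosome assembly protein family inside an intron of Herc3, rose by 1.08 ± 0.19 and 1.87 ± 0.19 (adjusted p = 0.000975 and 3.69e-06). Zrsr1, a splicing factor-related retrogene inside Commd1, rose by 0.46 ± 0.11 and 1.51 ± 0.11 (adjusted p = 0.00559 and 1.73e-07). Ddc, the enzyme that makes dopamine and serotonin from their precursors, was low, at 3.86 to 7.38 CPM at A6w against 1.13 to 2.47 at P4 (1.65 ± 0.33, adjusted p = 0.000838).

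In the Dlk1-Meg3 domain on chromosome 12, Meg3 and Rian were called higher at P4 than at E17.5, and Mirg was not. Meg3, the long noncoding RNA that opens the maternally expressed unit, stood at 148 and 373 CPM at E17.5, 1130 and 526 at P4, 428 and 558 at A6w and 474 and 685 at A18w in the libraries labelled Mcph1KO. Among WT libraries Meg3 stood at 130 and 211 CPM at E17.5, 1150 and 509 at P4, 899 and 498 at A6w and 507 and 344 at A18w. At P4 every library was above every E17.5 library (1.98 ± 0.37, adjusted p = 0.00133), with the first-numbered libraries of both genotypes about as far above the second-numbered ones. Rian, which hosts small nucleolar RNAs further along the unit, rose by 1.19 ± 0.12 at P4 (adjusted p = 4.27e-05) and fell by 0.76 ± 0.12 on the log2 scale at A6w against P4 (adjusted p = 0.000152). Mirg, the far end of the unit and the host of 26 mature microRNAs in the RefSeq table, was called in no single step, and was called higher at A6w and A18w than at E17.5 (0.78 ± 0.24, 5.92 ± 0.915 against 3.47 ± 1.18 CPM (SD), adjusted p = 0.0114). That call was lost without E17.5_Mcph1KO replicate 1 (adjusted p = 0.0568) or E17.5_WT replicate 1 (adjusted p = 0.0657).

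Rtl1, a retrotransposon-derived gene of this domain with 0.792 to 4.57 CPM in cortex, was called at no step. The RefSeq table places 11 mature microRNAs on its opposite strand, and the reverse complement of each of the 11 was found in a GENCODE Rtl1 transcript. They are shown in part because the strand setting of the counting is not given in the sources used here, so RNA of the opposite strand could have been counted as Rtl1. Sequences are RefSeq's (GRCm38.p6, chromosome 12, plus strand), with the seed in capitals, and no 2 of the 5 share a seed.
mmu-miR-431-5p: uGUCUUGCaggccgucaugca
mmu-miR-433-3p: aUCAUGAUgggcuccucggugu
mmu-miR-127-3p: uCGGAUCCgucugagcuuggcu
mmu-miR-434-3p: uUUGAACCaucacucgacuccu
mmu-miR-136-5p: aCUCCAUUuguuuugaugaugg

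Airn, the antisense RNA that silences Igf2r on the paternal chromosome outside neurons, was near the limit of counting. It reached 0.21 to 0.299 CPM at A6w, against 0.704 to 1.34 CPM at P4 (-1.86 ± 0.46, adjusted p = 0.00407). Kcnq1ot1, the silencing RNA of the Cdkn1c domain, was called at no step (0.75 ± 0.31 at P4, adjusted p = 0.072, and -0.73 ± 0.31 at A6w, adjusted p = 0.0592). Peg13, a noncoding RNA inside an intron of Trappc9, rose by 0.54 ± 0.12 at A6w against P4 (adjusted p = 0.00208), and Trappc9 itself was called higher over the whole span alone (0.29 ± 0.08, adjusted p = 0.00432), a call lost without the filter on low counts (0.28, adjusted p = 0.0594). Airn and Kcnq1ot1 lie antisense to coding genes, and Nnat, Zrsr1 and Peg13 lie inside Blcap, Commd1 and Trappc9, Peg13 on the strand of its host and the other two on the opposite strand. The values of all of these genes therefore carry the same limit of counting.

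Peg3 and Usp29 start head to head and were called in opposite directions at A6w against P4. Peg3 encodes a zinc finger DNA-binding protein and Usp29 a ubiquitin-specific protease, both of the paternal class. RefSeq's promoter windows, from 250 bases before to 50 after each start, overlap by 263 bases at chr7:6730370-6730632 (GRCm38.p6). The stretch is printed from the plus strand. Capitals run from the Peg3 start at 6730419, from which Peg3 is read leftward, to the Usp29 start at 6730583, from which Usp29 is read rightward.
Peg3 and Usp29: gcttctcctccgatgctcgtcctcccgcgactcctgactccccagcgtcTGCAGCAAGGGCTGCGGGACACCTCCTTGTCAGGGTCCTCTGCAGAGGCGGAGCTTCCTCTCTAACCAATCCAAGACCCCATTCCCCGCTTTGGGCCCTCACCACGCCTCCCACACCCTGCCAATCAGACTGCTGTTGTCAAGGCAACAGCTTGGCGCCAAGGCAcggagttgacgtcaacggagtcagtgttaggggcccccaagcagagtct

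Peg3 stood at 137 and 274 CPM at E17.5, 140 and 124 at P4, 228 and 321 at A6w and 198 and 291 at A18w in the libraries labelled Mcph1KO. Among WT libraries Peg3 stood at 126 and 128 CPM at E17.5, 230 and 168 at P4, 258 and 303 at A6w and 266 and 270 at A18w. Usp29 stood at 56 and 81.5 CPM at E17.5, 65.6 and 64.9 at P4, 32.3 and 45.3 at A6w and 29.7 and 40.3 at A18w in the libraries labelled Mcph1KO. Usp29 thus lay lower in every A6w library than in any P4 library, whereas Peg3 had 1 P4 library above 1 A6w library. Among WT libraries Usp29 stood at 56.8 and 60.9 CPM at E17.5, 94.8 and 78.6 at P4, 30 and 45 at A6w and 36 and 35.4 at A18w. At A6w against P4 the log2 fold change was 0.78 ± 0.21 for Peg3 (adjusted p = 0.00592) and -0.98 ± 0.17 for Usp29 (adjusted p = 0.00029). Within WT alone the value of Peg3 was 0.50 and not called (adjusted p = 0.188). Zim1, a maternally expressed zinc finger gene next to Peg3, fell to 1.57 to 3.25 CPM at A6w, against 16.9 to 35.4 CPM at P4 (-3.39 ± 0.35, adjusted p = 3.42e-06).

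The ratio of counts of 2 neighbours within a library does not depend on its scaling. Of 20 pairs of adjacent members within a domain, those with at least 10 counts for both genes in all 8 libraries gave 33 comparisons, chosen after the data had been seen. The groups of 4 libraries did not overlap in 18 of the 33, and the share among other pairs of genes was not computed. Among 19199 single genes, 4946 were so separated upward and 4922 downward at A6w against P4. At P4 against E17.5 these counts were 3444 and 3479. With 4 libraries against 4, the smallest two-sided p of an exact permutation test is 0.0286, and after Benjamini-Hochberg adjustment over the 33 these 18 stood at 0.0524, so none passed. The log2 ratio of Peg3 to Usp29 was 2.87 ± 0.16 at A6w and 1.10 ± 0.14 at P4 (SD, n = 4 each, exact permutation p = 0.0286). Zim1 to Peg3 was -6.99 ± 0.50 at A6w and -2.83 ± 0.17 at P4, and Snrpn to Ndn was 2.12 ± 0.58 at A6w and -0.16 ± 0.54 at P4 (SD, n = 4 each, exact permutation p = 0.0286 for both). Both genes of the first and of the last of these pairs are of the paternal class. At P4 against E17.5, Dlk1 to Meg3 was -6.78 ± 0.92 at P4 and -2.90 ± 0.33 at E17.5, and Kcnq1ot1 to Cdkn1c was -1.16 ± 0.52 at P4 and -2.98 ± 0.05 at E17.5 (SD, n = 4 each, exact permutation p = 0.0286 for both).

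**Figure D3:**
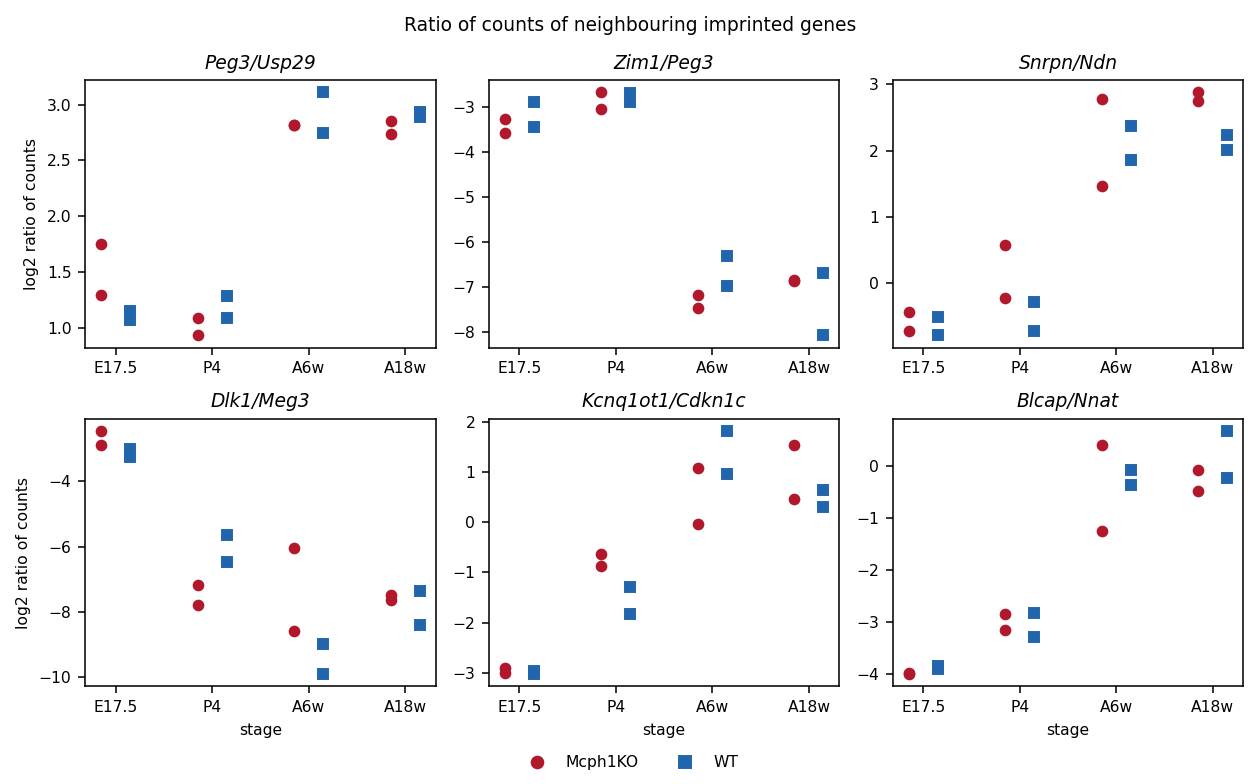
Log2 ratio of the counts of 2 neighbouring imprinted genes in each cortex library by stage, for 6 pairs, with circles for libraries labelled Mcph1KO and squares for WT. The ratio of Peg3 to Usp29 lies between 2.75 and 3.11 at A6w and between 0.93 and 1.28 at P4.

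The remaining genes of the set were the following. Inpp5f, a phosphoinositide phosphatase gene with an imprinted brain transcript, was called higher at P4 than at E17.5 (0.47 ± 0.12, adjusted p = 0.00716). It then fell to 90.9 to 113 CPM at A6w, against 359 to 468 CPM at P4 (-2.08 ± 0.12, adjusted p = 2.86e-08). Peg10, a retrotransposon-derived gene, fell to 16.9 to 32.9 CPM at A6w, against 42.3 to 168 CPM at P4 (-1.81 ± 0.37, adjusted p = 0.00106). Sgce, which starts beside Peg10 and encodes the dystrophin-complex protein epsilon-sarcoglycan, was called at no step. H13, the signal peptide peptidase gene, fell by 1.00 ± 0.11 on the log2 scale at A6w against P4 (adjusted p = 8.62e-06). Zdbf2 was called lower over the whole span (-0.82 ± 0.31, adjusted p = 0.0293), a call lost in 8 alternative fits and at -0.45 (adjusted p = 0.243) without E17.5_Mcph1KO replicate 2. Commd1 was called over the same span alone (-0.70 ± 0.17, adjusted p = 0.00265), and Slc22a18, at 0.122 to 0.652 CPM in cortex, in no comparison between stages. Asb4 stood at 0.0364 to 1.15 CPM at A6w and 1.78 to 17.3 CPM at P4 (-4.31 ± 0.71, adjusted p = 0.000188). Gnas, which encodes the stimulatory G protein alpha subunit and several alternative products, was called higher at P4 than at E17.5 (0.31 ± 0.10, adjusted p = 0.0329). That call was lost in 10 alternative fits (adjusted p 0.0546 to 0.528), among them those without E17.5_Mcph1KO replicate 1 (adjusted p = 0.163) and E17.5_WT replicate 1 (adjusted p = 0.144).

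The hexamer TGCCGC is the core of the sequence that ZFP57, a zinc finger protein that protects imprints, binds when methylated. It was searched on both strands (TGCCGC and GCGGCA) in RefSeq's 300-base promoter windows of 32 of the 40 genes. Impact was left out of this search, so 32 need not be the number of the 40 that have a window. The hexamer was present in windows of 11 of the 32 genes searched (34.4%), and of 13.1% of all 27025 genes with a window. The windows of the set held a median of 14 CG dinucleotides, against 7 over all windows, and a match is a description of letters, not of binding. The window of Nap1l5, which rose at both steps, and the second window of Mest, which fell, are shown as examples from GRCm38.p6, read along the gene, with the hexamer in capitals. They lie at chr6:58907077-58907376 (minus strand) and chr6:30737800-30738099 (plus strand).
Nap1l5: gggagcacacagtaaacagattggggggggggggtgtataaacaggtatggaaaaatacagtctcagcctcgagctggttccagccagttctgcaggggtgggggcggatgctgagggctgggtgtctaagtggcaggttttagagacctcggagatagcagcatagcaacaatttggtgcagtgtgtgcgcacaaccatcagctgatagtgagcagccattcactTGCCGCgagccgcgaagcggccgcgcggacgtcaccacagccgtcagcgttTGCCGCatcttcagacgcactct
Mest: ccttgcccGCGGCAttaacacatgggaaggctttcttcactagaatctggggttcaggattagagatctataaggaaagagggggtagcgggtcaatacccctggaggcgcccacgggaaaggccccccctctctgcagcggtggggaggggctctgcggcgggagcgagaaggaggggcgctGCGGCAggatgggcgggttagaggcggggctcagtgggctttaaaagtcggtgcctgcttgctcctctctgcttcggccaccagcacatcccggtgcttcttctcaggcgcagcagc

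Genes whose products maintain imprints were mostly called lower over the same span. Of 17 listed genes for imprint maintenance, 15 were tested in cortex and 14 were called lower at A6w and A18w than at E17.5, none higher, with a median log2 fold change of -1.29. Of all genes 35.5% were called lower and 33.5% higher, with a median of -0.04. Zfp57 itself had a log2 fold change of -4.89 ± 0.16 (adjusted p = 8.2e-11). Uhrf1, which recruits the maintenance methyltransferase to newly copied DNA, stood at -5.81 ± 0.23 (adjusted p = 2.97e-10). Trim28, the corepressor that ZFP57 recruits, stood at -1.78 ± 0.08 (adjusted p = 6.12e-10), and Setdb1, a histone H3 methyltransferase that works with it, at -1.59 ± 0.08 (adjusted p = 2.03e-09). Several of these genes belong to dividing cells as well. Radial glia and progenitor markers summed to 548 to 722 CPM at A6w and A18w and 1420 to 1640 CPM at E17.5. Of these 8 markers, 6 were called lower and 2 higher over the span (median -2.25). The part of dividing cells was not tested.

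The wider IGF pathway was also mostly called lower. Of 13 listed genes, 12 were tested, and 8 were called lower and 1 higher at A6w and A18w than at E17.5 (median -1.31), beside 35.5% and 33.5% of all genes and a median of -0.04. Igf2bp1, which encodes a fetal RNA-binding protein that binds Igf2 transcripts, stood at -9.75 ± 0.45 (adjusted p = 2.37e-09), and its relatives Igf2bp2 at -5.48 ± 0.24 (adjusted p = 7.13e-10) and Igf2bp3 at -4.16 ± 0.27 (adjusted p = 1.73e-08). Igfbp3, which encodes a binding protein for the secreted factors, had -1.85 ± 0.15 (adjusted p = 1.11e-07). Irs2, an insulin receptor substrate, was the gene called higher (0.86 ± 0.20, adjusted p = 0.00201). A second list of 41 other imprinted genes, 35 of them tested, had 11 called higher and 12 lower, with a median of -0.17, beside 33.5% and 35.5% of all genes and a median of -0.04. It was thus called about as often as other genes. Mkrn3 and Peg12, neighbours of Magel2, had -3.84 ± 0.17 (adjusted p = 7.04e-10) and -6.58 ± 0.41 (adjusted p = 1.19e-08). Dlx5, a homeobox gene of interneurons, had -2.85 ± 0.20 (adjusted p = 3.9e-08), and Kcnk9, a potassium channel gene, 3.10 ± 0.23 (adjusted p = 4.83e-08).

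The comparison of genotypes asked whether the libraries labelled Mcph1KO differed from WT in these genes. No imprinted gene was called at E17.5, P4, A6w or A18w, in the average over stages, or in the test of genotype by stage. At an unadjusted p under 0.05, edgeR listed 2, 6, 4 and 1 of the 39 at the 4 stages in that order, 0 in the average and 4 in the interaction, and DESeq2 called none. Over all 19199 genes the same counts were 303, 718, 763 and 326 at the stages, 425 in the average and 435 in the interaction. No gene of the 19199 was called at any single stage, and 0.0521% were called in the average. In simulated data for the E17.5 comparison 30% of genes changed 2-fold and 66% of those changed 4-fold were recovered, so changes of this size could be missed at this depth and number of libraries. Without the filter on low counts, edgeR called 4 imprinted genes higher at E17.5, 6 lower at P4 and 3 higher at A6w, with 105, 225 and 262 genes called in all. In that fit the spread of single genes was replaced by 1 common trend (infinite prior degrees of freedom, against 4.89 with the filter).

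The values of the set leaned together nonetheless. At E17.5 the median log2 fold change was 0.22, against 0 over all genes, with 33 of the 39 above 0. At P4 it was -0.38, against 0 over all genes, with 34 of the 39 below 0. At A6w the median was 0.12 and at A18w -0.04, against 0 and -0.01 over all genes. Groups that did not overlap numbered 7 higher and 1 lower at E17.5, where 9.83% of all genes were so separated upward and 10.3% downward. At P4 there were 0 higher and 17 lower (all genes 15% and 14.6%), at A6w 8 higher and 2 lower (16.7% and 15.4%), and at A18w 1 higher and 7 lower (10.4% and 12.4%). The second list of imprinted genes, 35 of them tested, leaned less at P4. Its median was 0.13 at E17.5 (24 above 0, 11 below) and -0.06 at P4 (14 above 0, 21 below). Its groups that did not overlap numbered 7 higher and 1 lower at E17.5, and 4 higher and 3 lower at P4.

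**Figure D4:**
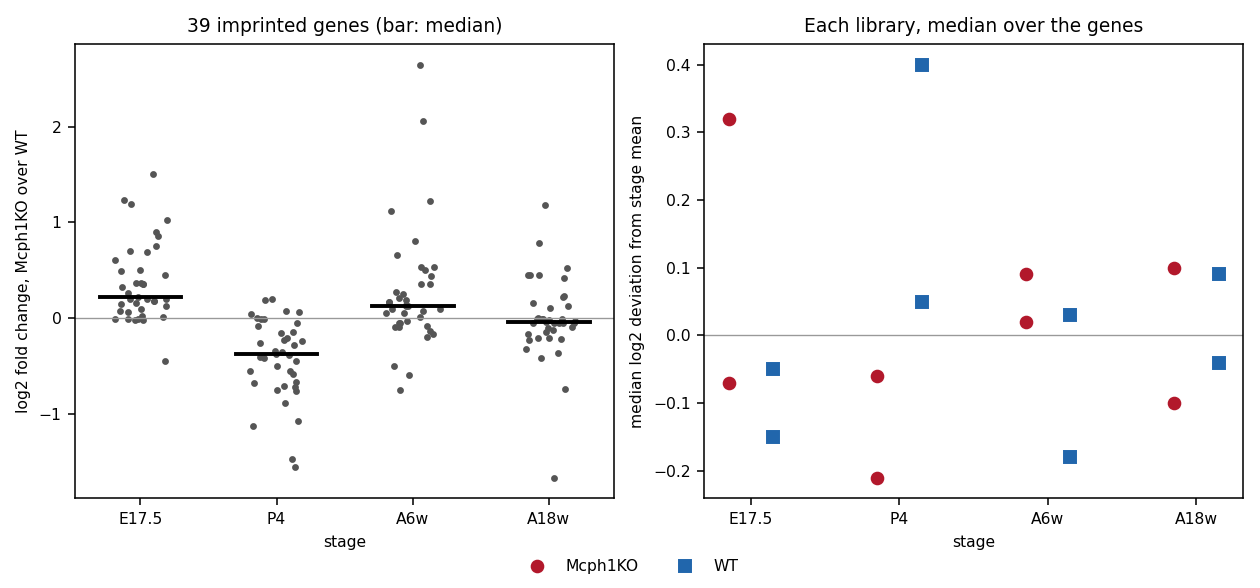
Left, log2 fold changes, Mcph1KO over WT, of the 39 imprinted genes at each stage, with a bar at the median (0.22 at E17.5, -0.38 at P4, 0.12 at A6w and -0.04 at A18w). Right, the median log2 deviation of the genes from their stage mean in each library, where 1 Mcph1KO library at E17.5 (0.32) and 1 WT library at P4 (0.40) stand highest.

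Single libraries stood apart at both early stages. The highest library of a stage was counted on CPM scaled by total count, without the TMM adjustment. At E17.5, replicate 2 labelled Mcph1KO was highest for 34 of 38 imprinted genes with a mean count of at least 10. The share over all such genes was 35.5%. Some of these genes were not highest there after TMM adjustment, such as Sgce (22.8 CPM against 23.3 in E17.5_WT replicate 1) and Peg13 (287 against 295). The number on that scale was not computed. At P4, WT replicate 1 held the highest for 29 of 38, and for 34.4% of all genes. Without E17.5_Mcph1KO replicate 2 the E17.5 median was 0.03, and without P4_WT replicate 1 the P4 median was -0.20. Markers of thalamus and hypothalamus summed to 237 and 657 CPM in the Mcph1KO libraries and to 202 and 554 CPM in WT libraries at E17.5. At P4 they summed to 202 and 100 CPM in Mcph1KO libraries and 551 and 133 CPM in WT libraries. The median deviations of imprinted genes, in the same library order, were -0.07 and 0.32 (Mcph1KO) and -0.15 and -0.05 (WT) at E17.5. At P4 they were -0.06 and -0.21 (Mcph1KO) and 0.40 and 0.05 (WT). At A6w the marker sums were 114 and 125 CPM (Mcph1KO) and 122 and 124 CPM (WT). The deviations there were 0.09 and 0.02 (Mcph1KO) and -0.18 and 0.03 (WT). Tcf7l2, a thalamic transcription factor, had 10.1 and 108 CPM (Mcph1KO) and 8.33 and 160 CPM (WT) at E17.5, and 9.84 and 4.39 CPM (Mcph1KO) and 178 and 11.6 CPM (WT) at P4, scaled by total count. Meningeal fibroblast markers summed to 506 and 1110 CPM in the Mcph1KO libraries and 499 and 661 CPM in WT libraries at E17.5, and to 507 and 461 CPM (Mcph1KO) and 762 and 805 CPM (WT) at P4. Of the 16 thalamic and hypothalamic markers, 12 were highest in E17.5_Mcph1KO replicate 2 and 12 in P4_WT replicate 1, and none was at 0 in either library. Of the 14 meningeal markers, 13 were highest in E17.5_Mcph1KO replicate 2 and 6 in P4_WT replicate 1, again with none at 0. At P4, 8 of the 14 were highest in WT replicate 2. Of 12 choroid plexus markers, 11 were highest in E17.5_WT replicate 2 (sum 1140 CPM) and 9 in P4_Mcph1KO replicate 2 (sum 853 CPM). Cortical neuron marker sums were lowest in E17.5_Mcph1KO replicate 2 and P4_WT replicate 1. They were 3080 and 1990 CPM (Mcph1KO) and 3170 and 2680 CPM (WT) at E17.5, and 1860 and 2120 CPM (Mcph1KO) and 1450 and 1690 CPM (WT) at P4. At E17.5, pericyte markers summed to 325 and 431 CPM (Mcph1KO) and 311 and 322 CPM (WT). At P4, the sums of vascular and blood markers were lower in both Mcph1KO libraries than in both WT libraries, and none of these markers was called. Endothelial markers summed to 261 and 299 CPM (Mcph1KO) and 384 and 393 CPM (WT), with 10 of 11 below 0 and 5 at an unadjusted p under 0.05 in edgeR. Pericyte markers summed to 249 and 254 CPM (Mcph1KO) and 343 and 361 CPM (WT), and erythroid markers to 154 and 62.5 CPM (Mcph1KO) and 262 and 308 CPM (WT). The part of these cell types in the result was not tested.

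Grb10 had the smallest unadjusted p of the set for genotype by stage (0.00208, adjusted p = 1). It had 188 and 199 CPM in the Mcph1KO libraries and 159 and 140 CPM in WT libraries at E17.5 (0.37 ± 0.21). At P4 it had 57.5 and 51.2 CPM (Mcph1KO) and 111 and 68 CPM (WT), a difference of -0.72 ± 0.21 (unadjusted p = 0.00446, edgeR, adjusted p = 1). At A6w it had 49.4 and 50 CPM (Mcph1KO) and 31.9 and 31 CPM (WT), a difference of 0.66 ± 0.21 (unadjusted p = 0.00785, edgeR, adjusted p = 1). The groups did not overlap at these 3 stages, with higher values in the libraries labelled Mcph1KO at E17.5 and A6w and lower ones at P4. At A18w they overlapped, at 37.5 and 29.3 CPM (Mcph1KO) and 43.6 and 34.4 CPM (WT). H19 at P4 had 43.7 and 20.1 CPM in the Mcph1KO libraries and 92.3 and 47.2 CPM in WT libraries (-1.13 ± 0.46, unadjusted p = 0.0292, edgeR, adjusted p = 1). Impact at A6w had 310 and 301 CPM (Mcph1KO) and 186 and 246 CPM (WT), a difference of 0.50 ± 0.19 (unadjusted p = 0.02, edgeR, adjusted p = 1). None of these differences passed the adjustment over all genes.

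Against embryonic stem cells, E17.5 WT cortex held most of the set at higher levels. Of the 40 genes, all tested in the fit of the 10 WT libraries (19466 genes), 28 were called higher in E17.5 WT cortex and 7 lower. Of all genes, 35.3% were called higher and 32.7% lower. In the second list of imprinted genes, 37 were tested, with 15 called higher and 7 lower and a median log2 fold change of 0.41. The median of the 40 genes was 2.93, against 0.06 over all genes. Setting the 4 genes with 3 or fewer counts in a group to their counting bounds could not move this median, because none of the bounds crosses it. The groups here have 2 libraries each and differ in growth conditions as well as in cell type, and cell culture cannot be told apart from tissue.

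Among the noncoding RNAs, H19 had 154 and 222 CPM in E17.5 WT cortex and 0.531 and 0 CPM in mESC. Meg3 had 125 and 203 CPM in cortex and 0.133 and 0.895 CPM in mESC, and Rian had 280 and 331 CPM in cortex and 0.31 and 2.48 CPM in mESC. In counts, these were 11926 against 12 for H19, 10375 against 25 for Meg3 and 19588 against 68 for Rian, which gives ratios of 893 (exact 95% counting interval 511 to 1730), 373 (252 to 577) and 259 (204 to 333) after scaling to library totals. The adjusted p was 2.65e-06 for H19, 4.16e-06 for Meg3 and 2.62e-06 for Rian. The other end of the same unit, Mirg, had 183 counts in cortex and 0 in mESC, at least 54.8-fold higher in cortex by a floor of 3 counts over the group. Rtl1 had 73 counts in cortex and 1 in mESC (ratio 65.6, exact interval 11.4 to 2630), and Airn 54 and 1 (48.5, interval 8.35 to 1950). These intervals and floors cover counting error only. Dlk1, at the other end of this domain, had 15.5 and 21.5 CPM in cortex and 1.59 and 1.87 CPM in mESC (3.41 ± 0.57, adjusted p = 0.000383).

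Nnat, Igf2 and Ndn were also higher in cortex. Nnat had 1680 and 1560 CPM in E17.5 WT cortex and 12.7 and 14 CPM in mESC (6.92 ± 0.43, adjusted p = 3.01e-07). Igf2 had 239 and 335 CPM in cortex and 2.25 and 1.99 CPM in mESC (7.07 ± 0.81, adjusted p = 2.48e-05). Ndn had 353 and 413 CPM in cortex and 10.4 and 6.59 CPM in mESC (5.50 ± 0.31, adjusted p = 1.74e-07). Each of these pairs is separated by far more than the spread within it. Mest libraries in mESC differed most among these, at 3.27 and 21.2 CPM, against 196 and 132 CPM in cortex (3.74 ± 0.75, adjusted p = 0.0012).

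Lower in cortex than in stem cells were Phlda2, Ddc, Impact, Slc22a18, Peg10, Commd1 and Grb10. Phlda2 had 3 counts in the E17.5 WT libraries together and 2343 in mESC, a ratio of 0.00115 (exact 95% counting interval 0.000237 to 0.00337). Ddc had 1.53 and 2.18 CPM in cortex and 38.8 and 35.9 CPM in mESC (-4.33 ± 0.35, adjusted p = 1.94e-06). Impact, which rose with age in cortex, had 17.4 and 21.4 CPM in E17.5 cortex and 126 and 199 CPM in mESC (-3.06 ± 0.28, adjusted p = 4.39e-06). Its level in stem cells was thus above that of E17.5 cortex by more than the spread of either group. Without E17.5_WT replicate 2, 4 genes were called lower, and the calls of Grb10 (adjusted p = 0.0527), Peg10 (0.116) and Slc22a18 (0.0683) were lost. Slc22a18 was also lost without E17.5_WT replicate 1 (0.0766) or mESC_WT replicate 2 (0.225), and Peg10 without mESC_WT replicate 1 (0.143). Igf2r, Ube3a, Zrsr1, Kcnq1ot1 and Zdbf2 were not called.

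**Figure D5:**
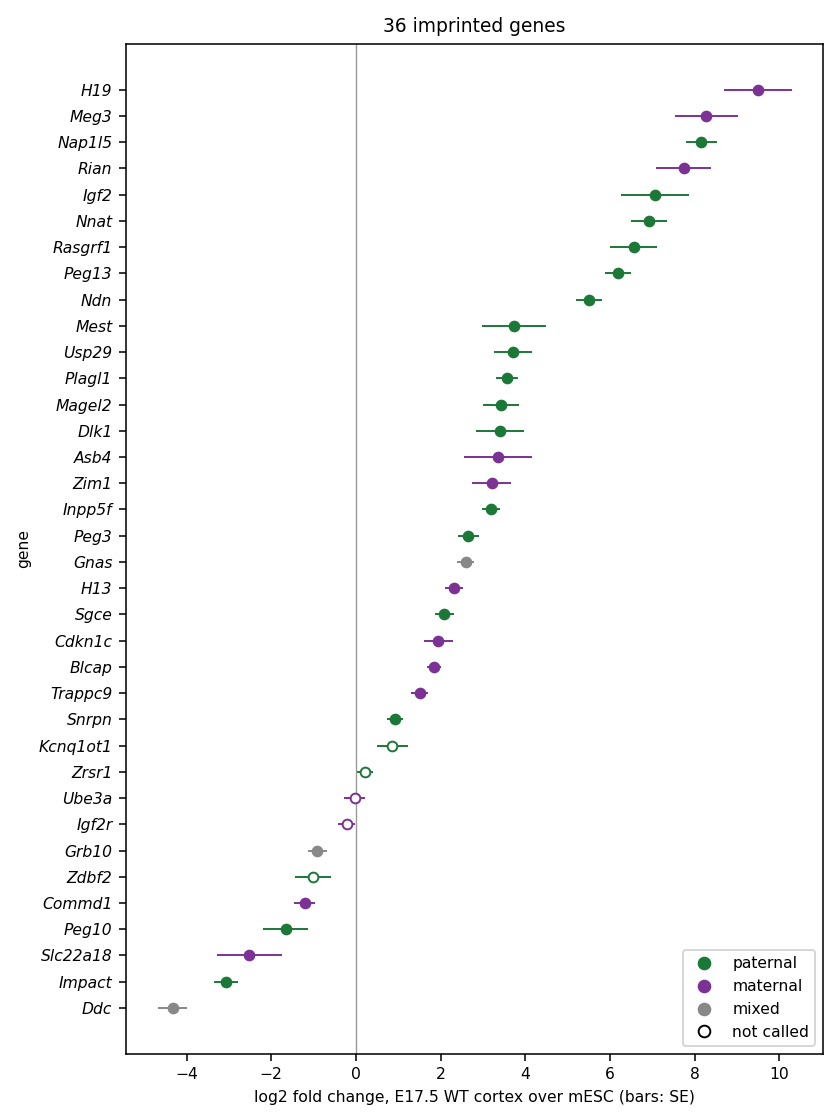
Log2 fold change, E17.5 WT cortex over mESC, with its SE, for the 36 imprinted genes with more than 3 counts in both groups, coloured by the class of allele they are known to be expressed from. Open circles were not called, and most filled circles lie to the right of 0.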

How the data were processed

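Total RNA of 18 libraries was sequenced after NEBNext Ultra preparation, per the labels' protocols. The authors deposited 1 table of estimated counts per gene, from Salmon 1.4.0 after Trimmomatic 0.39 and FastQC on GRCm38.p6, per the submitters' processing notes. The strand setting and whether replicates were separate animals are not given in the sources used here. The deposited counts were already whole numbers and were filtered with filterByExpr (minimum count 10, minimum total 15). They were fitted with edgeR 4.0.16 (R 4.3.3, limma 3.58.1) by quasi-likelihood, over 16 cortex libraries and, for stem cells, over 10 WT libraries, with an adjusted p threshold of 0.05. The imprinted genes and all gene and marker lists were chosen with earlier results of these data known. Any of the 40 could be named, and from each other list up to 4 called genes of smallest adjusted p; Irs2 was named after its value was seen, as were the ratios of neighbours. Marker sums, and the counts of genes highest in a library, use CPM by total count. Alternatives covered DESeq2 1.42.0, other size factors, no filter, other sets of libraries, a replicate block and each library left out. Replicates differed by more than sampling noise (chi-square per degree of freedom 28.59 to 125.02). The fits were tested on simulated data.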

Additional observations from a re-analysis of the deposited data

How the results depend on the processing

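No called gene changed direction in the alternatives run. Without the filter on low counts, 4 imprinted genes were called higher in Mcph1KO than in WT at E17.5, 6 lower at P4 and 3 higher at A6w. In the average 1 was called higher, and 12 were called for genotype by stage. Of all 33930 genes in that fit, 105, 225, 262, 124 and 466 were called in these comparisons, in either direction. The same setting called 12 imprinted genes lower at P4 than at E17.5, and 1 higher and 1 lower at A18w than at A6w. Of all genes it called 7216 and 598 at these steps, in either direction. Within Mcph1KO alone, with fewer libraries, 5 imprinted genes were called higher at P4 than at E17.5 and 12 lower at A6w than at P4. There, 7 were called higher at A6w and A18w than at E17.5. Of all 19199 genes, 3594, 7574 and 11059 were called in these comparisons, in either direction. Within WT alone 4 imprinted genes were called lower at P4 than at E17.5, where 3502 of all genes were called in either direction.

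With each library left out in turn, P4 against E17.5 gave 8 to 12 genes higher and 6 to 9 lower, A6w against P4 gave 8 to 9 higher and 17 to 20 lower, and A6w and A18w against E17.5 gave 12 to 13 higher and 20 to 21 lower. E17.5 WT cortex against stem cells gave 28 to 29 higher and 4 to 8 lower. The median for genotype ran from 0.03 to 0.45 at E17.5, -0.53 to -0.2 at P4, 0.01 to 0.25 at A6w and -0.14 to 0.04 at A18w. Leaving out E17.5_Mcph1KO replicate 2 and P4_WT replicate 1 together, chosen after seeing the data, gave medians of 0.03 and -0.2. Same-numbered libraries of the genotypes correlated at 0.476 (E17.5), 0.214 (P4), 0.098 (A6w) and 0.326 (A18w). The labels do not say what a number marks, and 3 of the 4 stages passed the threshold of 0.1 that was asked of every stage, so a shared source of same-numbered libraries is a hint from the data, and the fit without the block was kept. With a replicate block, 10 imprinted genes were called higher and 7 lower at P4 than at E17.5, 8 and 20 at A6w than at P4, and 0 for genotype. Of all 19199 genes, 7469 and 10940 were called at these steps in either direction. For genotype, 7, 5, 4 and 4 of all genes were called at E17.5, P4, A6w and A18w.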
